A study of Homo sapiens with 60 samples.

Results

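The aryl hydrocarbon receptor and 6 genes tied to it were followed in HT29 cells given water extracts of herbal medicines. The set held 7 genes, chosen by symbol and matched to their Ensembl identifiers among the 60675 genes of the count table: CYP1A1, CYP1B1, AHRR, TIPARP, AHR, ARNT and ALDH1A3. All 7 passed the filter on low counts that left 16608 genes for testing. No measured value entered the choice by symbol, but these genes were picked with earlier results of the same data known.

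HT29 is an established human colorectal adenocarcinoma line. Cells were treated for 24 h, and the 60 libraries formed 20 groups of 3. Water extracts of Zingiberis Rhizoma Recens (fresh ginger), Zingiberis Rhizoma (ginger), Pinelliae Tuber, Scutellariae Radix and Zizyphi Fructus were each given at 20, 100 and 500 µg/mL, called low, medium and high. For Coptidis Rhizoma the 3 doses were 11.6, 58 and 290 µg/mL, since its top dose was set where growth was inhibited by 20%. The other 2 groups received wortmannin, a phosphoinositide 3-kinase inhibitor, at 10 µM, or the vehicle DMSO. The labels give DMSO at 0.1% for the vehicle samples and 2% in the series text, and which was used is not settled here. All groups come from 1 cell line, and the labels do not say whether libraries of the same group are separate cultures. P-values therefore measure only the spread between these libraries, which may be technical.

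The aryl hydrocarbon receptor (AhR, gene AHR) is a transcription factor that waits in the cytoplasm bound to HSP90. When a small molecule such as a dioxin, a tryptophan metabolite or a plant flavonoid binds it, the receptor enters the nucleus, pairs with ARNT and binds DNA at the xenobiotic response element, whose core is GCGTG. In the gut, dietary and microbial ligands act on it, and its induced genes include the monooxygenases CYP1A1 and CYP1B1, which oxidise foreign compounds and oestrogens. AHRR competes with the receptor for ARNT and represses it, and TIPARP is an ADP-ribosyltransferase that modifies the receptor and shuts its signal down. ALDH1A3 makes retinoic acid from retinaldehyde and stands in the list as an induced enzyme.

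Promoter sequences of 300 bases, 250 before to 50 after the start, were listed in RefSeq (GRCh38.p14) for 6 of the 7 genes in 9 windows. CYP1B1 had none listed. The letters GCGTG were searched on both strands, with overlapping matches counted, and 36.5% of the 35114 promoters of this length held at least 1 match, while 12.7% held at least 2. The windows of CYP1A1, TIPARP and ALDH1A3 are shown because these genes moved together, and that of AHRR because it did not move with them. Each is written 5′ to 3′ on the gene's strand, with the motif or its reverse complement CACGC in capitals.
CYP1A1: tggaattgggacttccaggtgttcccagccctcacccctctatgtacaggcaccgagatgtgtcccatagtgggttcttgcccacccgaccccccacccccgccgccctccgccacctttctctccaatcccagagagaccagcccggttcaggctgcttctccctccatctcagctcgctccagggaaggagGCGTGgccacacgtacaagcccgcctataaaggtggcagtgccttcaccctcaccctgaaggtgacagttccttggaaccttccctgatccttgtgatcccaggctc
TIPARP: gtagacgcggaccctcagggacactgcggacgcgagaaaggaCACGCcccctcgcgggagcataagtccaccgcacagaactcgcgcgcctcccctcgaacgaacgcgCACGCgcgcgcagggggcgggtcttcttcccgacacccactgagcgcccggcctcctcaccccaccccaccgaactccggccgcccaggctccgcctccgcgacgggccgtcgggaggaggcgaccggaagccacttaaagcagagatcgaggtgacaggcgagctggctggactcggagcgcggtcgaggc
ALDH1A3: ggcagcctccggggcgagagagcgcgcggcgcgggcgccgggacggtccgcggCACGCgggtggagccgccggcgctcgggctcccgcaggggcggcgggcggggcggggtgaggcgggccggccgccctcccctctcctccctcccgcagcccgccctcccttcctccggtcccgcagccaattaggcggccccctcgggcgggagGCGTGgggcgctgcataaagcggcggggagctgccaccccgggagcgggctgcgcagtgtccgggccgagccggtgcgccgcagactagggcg
AHRR: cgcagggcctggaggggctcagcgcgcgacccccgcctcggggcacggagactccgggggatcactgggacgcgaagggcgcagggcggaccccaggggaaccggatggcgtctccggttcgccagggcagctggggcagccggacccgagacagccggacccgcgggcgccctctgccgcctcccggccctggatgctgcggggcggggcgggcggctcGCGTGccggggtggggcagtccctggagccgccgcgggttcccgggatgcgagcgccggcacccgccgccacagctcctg
The CYP1A1 window lies on the minus strand at chr15:74725479-74725778 and has 1 match, whose first base is at -57 from the start. The first of the 3 TIPARP windows lies on the plus strand at chr3:156674340-156674639 and has 2 matches, at -208 and -142, while the other TIPARP windows have 0 each. ALDH1A3, on the plus strand at chr15:100879581-100879880, has 2 matches, at -197 and -43. The AHRR window shown lies on the plus strand at chr5:321464-321763 and has 1 match at -30, and a further AHRR window has 2. The AHR window has 1 match at 37 after the start, and the ARNT window has 0. These matches describe letters in a short window, and the well-studied response elements of CYP1A1 lie mostly upstream of it.

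In the GENCODE 29 annotation of GRCh38, CYP1A1 spans chr15:74719542-74725610 on the minus strand, CYP1B1 chr2:38066973-38109902 on the minus strand and ARNT chr1:150809705-150876768 on the minus strand. AHRR spans chr5:304176-438291, TIPARP chr3:156673235-156706770, AHR chr7:16916359-17346152 and ALDH1A3 chr15:100877714-100916626, all on the plus strand. Per kilobase of exon, the vehicle level was 13.5 CPM (counts per 1000000 counts of the library) for AHR, 13.3 for TIPARP, 7.98 for CYP1B1, 4.59 for ARNT, 3.53 for ALDH1A3, 0.587 for AHRR and 0.164 for CYP1A1. CYP1A1 was thus the least abundant of the 7 by length in vehicle cells. On the same scale it reached 57.1 CPM per kilobase in Coptidis Rhizoma high and 46.3 in Scutellariae Radix medium, where CYP1B1 was at 77.7 and 75.2.

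Library totals were 11.1 to 34.4 M counts, with a median of 23.4 M. CYP1A1 counts ran from 2 to 5715 per library (median 16.5), so its lower groups rest on few reads: the vehicle libraries held 8, 16 and 15. Vehicle replicate 1, Zingiberis Rhizoma Recens low replicate 1, Zingiberis Rhizoma high replicate 2 and Zizyphi Fructus high replicate 3 stood apart from the other libraries on the second principal component, which held 8.5% of the variance. Some results that rest on these 4 are also given without them, and the others include them. The Coptidis Rhizoma high libraries stood apart on the first component, which held 15.7%. The 8 markers of colon epithelium all passed the filter on low counts, at a summed 9640 to 14700 CPM. Most of that sum was KRT8 and KRT18, with medians of 6320 and 3530 CPM. CDX1 had a median of 1.1 CPM, near those of COL1A1 (1.25) and PECAM1 (1.72), which mark other cell types. Of 6 markers of other cell types, 4 had a median of 0 CPM, and the 6 together summed to 2.02 to 3.91 CPM. In these bulk libraries, more cells expressing a gene and more RNA per cell cannot be told apart.

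Scutellariae Radix and Coptidis Rhizoma raised CYP1A1, CYP1B1, TIPARP and ALDH1A3 together, and the 2 extracts had different dose curves. With Coptidis Rhizoma all 4 genes climbed with each dose. With Scutellariae Radix they rose to the medium dose, and at the high dose CYP1A1, CYP1B1 and ALDH1A3 were lower than at the medium dose. The means of the receptor gene AHR stayed between 106 and 142 CPM over the 20 groups and those of its partner ARNT between 27.3 and 35.2 CPM. Zingiberis Rhizoma raised CYP1A1 4.82-fold at its high against its low dose, and no gene of the set was called between doses of Pinelliae Tuber or Zizyphi Fructus with all libraries and the filter on low counts in edgeR. Under other settings, given with each gene, CYP1B1 was called for Pinelliae Tuber and ARNT and AHRR for Zizyphi Fructus.

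A gene was called where its adjusted p was below 0.05 (edgeR quasi-likelihood test, Benjamini-Hochberg over all 16608 genes of a comparison). For Coptidis Rhizoma, 6 of the 7 were higher at the high than at the low dose, where 52.4% of all genes were called. All 7 were higher at the high than at the medium dose, with 46.5% of all genes called. At medium against low, 4 were higher, with 1.3% called. The counts that involve the high dose stand against these large shares, and that of medium against low stands against a small one. The median log2 change of the 7 genes was 1.44 at high against low, beside 0.001 over all genes tested.

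For Scutellariae Radix, 4 of the 7 were higher at the medium than at the low dose, against 3.35% of all genes called, with a median of 1.09 beside -0.002 over all genes. At high against low 4 were higher, against 16.3%, and at high against medium 3 were lower and 0 higher, against 5.09%. In the Zingiberis Rhizoma Recens libraries 3 of the 7 were higher at the high than at the low dose (1.79% of all genes called), but 1 of the 7 without the 4 libraries that stand apart. None was called at high against medium (0.458%) or medium against low (0%). In the Zingiberis Rhizoma libraries 3 were higher at high against low (0.915%), 1 at high against medium (0.247%) and 0 at medium against low (0%). For Pinelliae Tuber 0 of 7 were called at high against low (0.0421%), high against medium (0.0361%) or medium against low (0%), and for Zizyphi Fructus 0 of 7 at the same comparisons (0.0482%, 0.0301% and 0%). For Zizyphi Fructus the number of all genes called depended on the tool, at 8 by edgeR and 1185 by DESeq2 for high against low, and 5 by edgeR and 1050 by DESeq2 for high against medium. Over the 6 extracts, that made 16 of 42 gene and extract pairs higher at high against low, 8 higher and 3 lower at high against medium, and 8 higher at medium against low. In 12 of the 47 comparisons edgeR called 0 genes of all those tested; there 335 to 3509 genes had an unadjusted p under 0.05, and DESeq2 called 0 to 335.

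**Figure D1:**
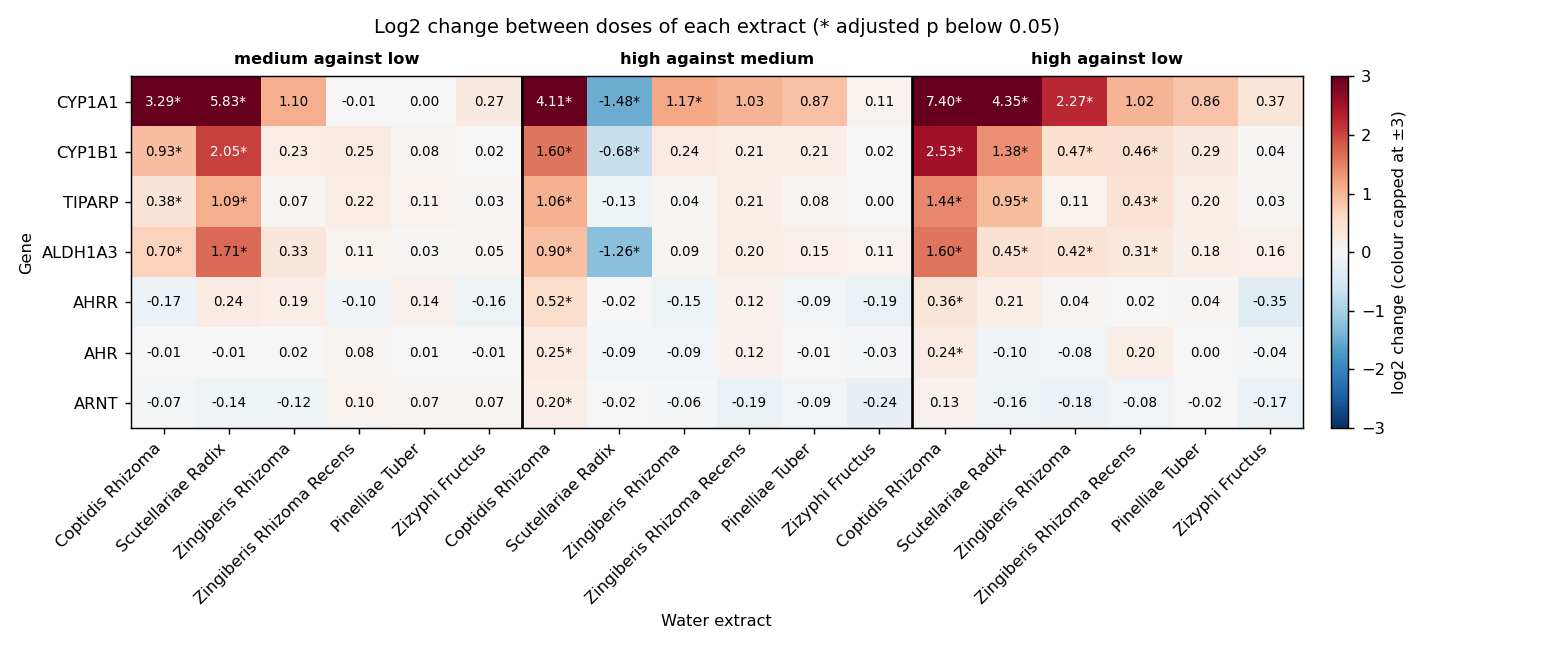
Log2 change of the 7 genes (rows) between doses of each of the 6 water extracts (columns), with medium against low on the left, high against medium in the middle and high against low on the right. Asterisks mark an adjusted p below 0.05 and colour is capped at 3 in either direction. Coptidis Rhizoma is red in all 3 blocks for the upper 4 genes, and Scutellariae Radix turns blue for CYP1A1 (-1.48), CYP1B1 (-0.68) and ALDH1A3 (-1.26) at high against medium.

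CYP1A1 is the classical induced enzyme of the receptor. In CPM scaled by the trimmed mean of M-values (TMM), used for every level below unless said otherwise, the Coptidis Rhizoma libraries held 1.07, 1.07 and 1.35 at the low dose, 12.6, 10.8 and 10.5 at the medium dose, and 196, 198 and 194 at the high dose. Each step was called, by 3.29 ± 0.16 on the log2 scale at medium against low (9.78-fold, adjusted p = 3.67e-22) and by 4.11 ± 0.10 at high against medium (17.3-fold, adjusted p = 5.05e-35). The value after ± on a log2 change is an approximate standard error. High against low came to 7.40 ± 0.13, a 169-fold difference, and ranked number 3 among all genes by rise. No library of one dose overlapped another dose.

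The Scutellariae Radix libraries held 4.00, 2.39 and 2.29 CPM of CYP1A1 at the low dose, 152, 159 and 167 at the medium dose, and 58.1, 54.7 and 58.2 at the high dose. All 3 doses were apart from each other, and the medium dose was the highest. CYP1A1 rose by 5.83 ± 0.12 on the log2 scale at medium against low (57.0-fold, adjusted p = 4.55e-38), again number 3 among all genes. At high against medium it was lower, with a log2 change of -1.48 ± 0.09, a 2.79-fold difference (adjusted p = 3.9e-18). High against low was 4.35 ± 0.12 (adjusted p = 7.19e-32).

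Zingiberis Rhizoma libraries held 0.342, 0.382 and 0.546 CPM of CYP1A1 at the low dose, 0.806, 0.750 and 1.13 at the medium dose, and 2.03, 1.81 and 2.32 at the high dose. These doses did not overlap either, at levels close to those of vehicle for the lower doses. High against low was 2.27 ± 0.29 (4.82-fold, adjusted p = 6.53e-07), and 2.33 without the 4 libraries that stand apart. High against medium was 1.17 ± 0.23 (adjusted p = 0.00507), a call lost when medium replicate 1 or 2 or high replicate 3 was left out (adjusted p 0.0558, 0.072 and 0.0756) and in a fit of only the libraries compared (adjusted p = 0.22). Medium against low, 1.10 (95% interval 0.42 to 1.78), was not called.

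Zingiberis Rhizoma Recens high held 1.00, 1.17 and 1.02 CPM of CYP1A1 and its low dose 0.540, 0.597 and 0.427, with no overlap. The log2 change of 1.02 (95% interval 0.32 to 1.72) had an adjusted p of 0.132. Pinelliae Tuber high held 0.888, 1.01 and 0.910 CPM against 0.618, 0.501 and 0.483 at its low dose, also without overlap, and its change of 0.86 (0.23 to 1.49) had an adjusted p of 1. The Zizyphi Fructus libraries held 0.116 to 0.604 CPM over its 3 doses and overlapped throughout. Its high-against-low change was 0.37 (-0.47 to 1.21), and 0.69 without the 4 libraries that stand apart. Replicate 3 was the lowest library at each dose, with 2, 4 and 3 reads of the gene at the low, medium and high dose.

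**Figure D2:**
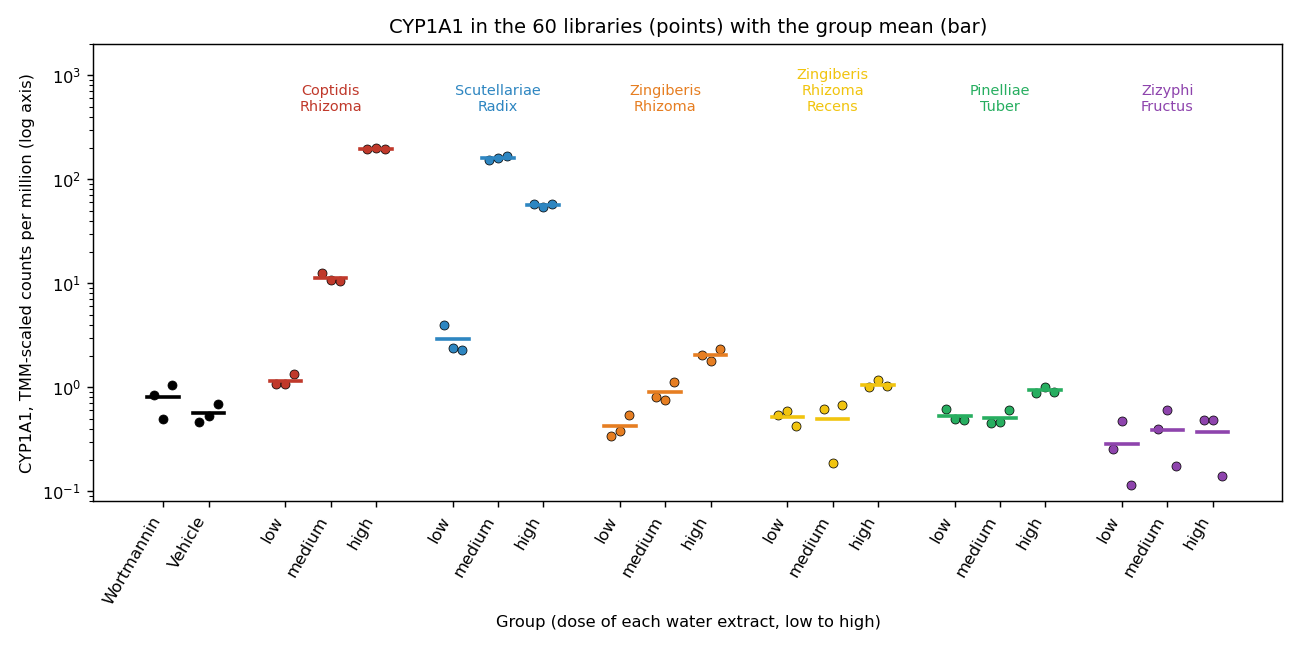
CYP1A1 in each of the 60 libraries (points) and the group mean (bar), as TMM-scaled CPM on a log axis, with wortmannin and vehicle at the left and each extract from its low to its high dose. Coptidis Rhizoma climbs to 194 to 198 CPM at the high dose, Scutellariae Radix peaks at 152 to 167 CPM at the medium dose, and vehicle lies at 0.460 to 0.695 CPM.

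Ordered by mean CYP1A1 level, Coptidis Rhizoma high (196 ± 1.77 CPM, SD, n = 3) came before Scutellariae Radix medium (159 ± 7.54), Scutellariae Radix high (57.0 ± 2.02), Coptidis Rhizoma medium (11.3 ± 1.13), Scutellariae Radix low (2.89 ± 0.959) and Zingiberis Rhizoma high (2.05 ± 0.258). The first 4 of these groups were apart from their neighbours in the order, while Scutellariae Radix low and Zingiberis Rhizoma high overlapped. From Coptidis Rhizoma low (1.16 ± 0.16 CPM) down to Zizyphi Fructus low (0.283 ± 0.182 CPM), every neighbouring pair of groups overlapped, vehicle among them.

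CYP1B1, the second inducible monooxygenase, followed the same dose curves from a higher starting level. Coptidis Rhizoma libraries held 83.5, 81.3 and 77.5 CPM at the low dose, 155, 153 and 154 at the medium dose, and 452, 475 and 473 at the high dose. The log2 change was 0.93 ± 0.08 at medium against low (adjusted p = 1.9e-12) and 1.60 ± 0.08 at high against medium (adjusted p = 6.82e-23). The doses did not overlap.

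With Scutellariae Radix, CYP1B1 stood at 138, 96.9 and 93.0 CPM at the low dose, 468, 449 and 439 at the medium dose, and 286, 286 and 278 at the high dose. The low-dose library of replicate 1 was the highest of its group here as it was for CYP1A1, TIPARP and ALDH1A3. CYP1B1 rose by 2.05 ± 0.08 at medium against low (4.15-fold, adjusted p = 1.02e-25), and was lower at high than at medium dose, at -0.68 ± 0.08 (1.60-fold, adjusted p = 4.68e-09).

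Both ginger extracts raised CYP1B1 by small amounts at high against low. Zingiberis Rhizoma high held 75.9, 66.0 and 71.9 CPM against 53.4, 53.3 and 48.2 at the low dose (log2 change 0.47 ± 0.08, adjusted p = 0.000536). Zingiberis Rhizoma Recens high held 62.4, 64.8 and 68.0 CPM against 40.1, 52.5 and 48.1 (0.46 ± 0.09, adjusted p = 0.000883), and this call was lost in a fit of only the libraries compared (adjusted p = 0.165). Under a linear trend on log10 dose neither was called (0.47, adjusted p = 0.536 for Zingiberis Rhizoma and 0.46, adjusted p = 0.499 for Zingiberis Rhizoma Recens). That fit took all extracts together, so the medium-dose peak of Scutellariae Radix entered the spread used for every extract. Pinelliae Tuber gave 0.29 (0.12 to 0.46, adjusted p = 0.635), which was called with no filter on low counts (0.30, adjusted p = 0.00867) and in a fit of only the libraries compared (0.29, adjusted p = 0.0304). Zizyphi Fructus gave 0.04 (-0.12 to 0.21, adjusted p = 0.789). Exons of CYP1B1 share 678 bases with the antisense gene CYP1B1-AS1, which held 3.37% as many counts, and the sources do not say whether reads were counted by strand.

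TIPARP, which ends the receptor's signal, rose with both strong extracts. Its Coptidis Rhizoma libraries held 90.1, 85.1 and 86.7 CPM at the low dose, 111, 112 and 118 at the medium dose, and 220, 232 and 259 at the high dose. High against medium was 1.06 ± 0.08 (2.09-fold, adjusted p = 3.33e-15). Medium against low was 0.38 ± 0.08 (adjusted p = 0.00605), and that call was lost without low replicate 2 or medium replicate 3 (adjusted p 0.0655 and 0.0693).

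Under Scutellariae Radix, TIPARP held 118, 93.5 and 93.0 CPM at the low dose, 230, 209 and 207 at the medium dose, and 200, 194 and 195 at the high dose. The rise at medium against low was 1.09 ± 0.08 (2.13-fold, adjusted p = 5.15e-14). At high against medium the libraries did not overlap, but the log2 change of -0.13 (95% interval -0.30 to 0.03) was not called (adjusted p = 0.527), unlike those of CYP1A1, CYP1B1 and ALDH1A3. In Zingiberis Rhizoma Recens, TIPARP was higher at high than at low dose by 0.43 ± 0.09 (adjusted p = 0.00316), with 87.1, 88.3 and 95.8 against 52.7, 80.1 and 66.8 CPM. Low replicate 1 was far below the others. Without it the change was 0.30 (adjusted p = 0.112), and without all 4 libraries that stand apart it was 0.30 (adjusted p = 0.0537). The call was also lost in a fit of only the libraries compared (0.44, adjusted p = 0.474) and under the linear trend (0.43, adjusted p = 0.182). Zingiberis Rhizoma, Pinelliae Tuber and Zizyphi Fructus gave 0.11, 0.20 and 0.03, none called.

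AHRR, the repressor that is itself known as a target of the receptor, did not follow CYP1A1. Its 20 group means lay between 4.16 ± 0.657 CPM in Coptidis Rhizoma medium and 6.63 ± 0.768 CPM in wortmannin. Scutellariae Radix libraries held 4.88, 5.24 and 4.29 CPM at the low dose, 5.35, 5.79 and 5.72 at the medium dose, and 5.38, 5.67 and 5.57 at the high dose. The medium-against-low change was 0.24 (95% interval 0.00 to 0.47, adjusted p = 0.359), while CYP1A1 rose 57.0-fold in the same libraries.

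Coptidis Rhizoma libraries held 4.78, 4.32 and 4.80 CPM of AHRR at the low dose, 4.05, 3.57 and 4.87 at the medium dose, and 5.21, 7.21 and 5.31 at the high dose. Replicate 2 of the high dose was the highest of the 3. High against low was 0.36 ± 0.11 (adjusted p = 0.00674), and without that library 0.19 (adjusted p = 0.203). High against medium was 0.52 ± 0.12 (adjusted p = 0.000243). For Zizyphi Fructus high against low, AHRR stood at -0.35 and was not called, but was at -0.41 without high replicate 1 (adjusted p = 0.0193). AHRR shares 244 exon bases with PDCD6 on the same strand, whose level was 188 to 296 CPM, so reads assigned to AHRR are uncertain where the genes overlap.

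ALDH1A3, the retinaldehyde dehydrogenase, was the gene whose highest group was Scutellariae Radix medium. Its libraries held 41.3, 34 and 32 CPM at the low dose of that extract, 114, 119 and 117 at the medium dose, and 49.4, 46.7 and 49.5 at the high dose. Medium against low was 1.71 ± 0.07 (3.27-fold, adjusted p = 1.46e-25) and high against medium -1.26 ± 0.07 (2.40-fold lower, adjusted p = 3.79e-20). High against low was 0.45 ± 0.07 (adjusted p = 1.96e-06). A linear trend on log10 dose, which a peak in the middle does not follow, gave 0.40 (adjusted p = 0.509).

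With Coptidis Rhizoma, ALDH1A3 held 26.8, 25.5 and 28.3 CPM at the low dose, 40.2, 44.9 and 45.4 at the medium dose, and 80.6, 78.8 and 83.8 at the high dose. Each step was called, at 0.70 ± 0.07 (adjusted p = 3.11e-10) for medium against low and 0.90 ± 0.07 (adjusted p = 3.93e-16) for high against medium. Zingiberis Rhizoma high held 27.7, 24.9 and 25.3 CPM against 17.9, 20.7 and 19.2 at the low dose (0.42 ± 0.08, adjusted p = 0.000572), a call lost in a fit of only the libraries compared (adjusted p = 0.062) and under the linear trend (adjusted p = 0.612). The change under the linear trend was still 0.42, and the spread of that fit includes the Scutellariae Radix peak. Zingiberis Rhizoma Recens high held 23.6, 21.0 and 26.7 CPM against 18.2, 19.3 and 20.0 (0.31 ± 0.08, adjusted p = 0.0313). That call was lost without the 4 libraries that stand apart (0.28, adjusted p = 0.131). It was lost without any of 4 single libraries: high replicate 1 or 3, or low replicate 1 or 3. A fit of only the libraries compared (0.31, adjusted p = 0.553) and the linear trend (0.31, adjusted p = 0.714) did not call it either.

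The antisense gene AC015712.2 shares 1585 exon bases with ALDH1A3 and held 41.6% as many counts. Its mean level was 15.2 ± 0.577 CPM at the low, 24.2 ± 0.683 at the medium and 13.5 ± 0.202 at the high dose of Scutellariae Radix. It too was highest at the medium dose. ALDH1A3 has 5772 exon bases in all, and within the shared 1585 reads of the 2 genes cannot be told apart without strand.

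**Figure D3:**
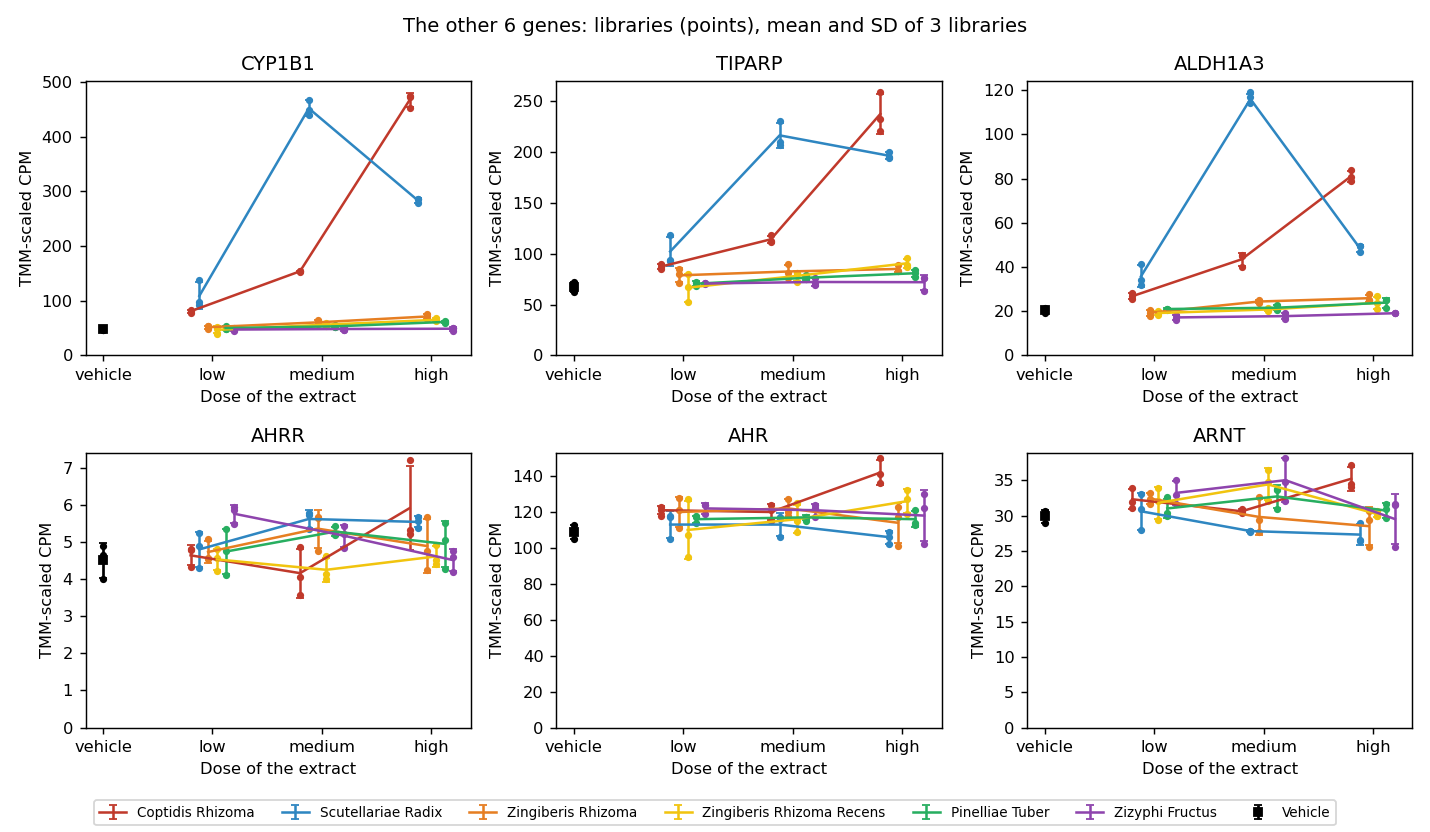
Levels of the other 6 genes in TMM-scaled CPM (vertical axes, from 0) at vehicle and at the low, medium and high dose of each extract, with points for libraries, lines through the means and bars for the SD of 3. CYP1B1 and ALDH1A3 show the peak of Scutellariae Radix at the medium dose, TIPARP was not called there between medium and high, and all 3 climb with Coptidis Rhizoma; AHRR, AHR and ARNT stay within 3.57 to 7.21, 95.1 to 150 and 25.5 to 38.2 CPM.

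AHR, the receptor itself, lay between 95.1 and 150 CPM in all 60 libraries. Its highest group was Coptidis Rhizoma high, with 136, 141 and 150 CPM, against 121, 118 and 123 at the low dose. The high-dose libraries were all higher, by 0.24 ± 0.07 (1.18-fold, adjusted p = 0.00321). Scutellariae Radix held 105, 117 and 118 CPM at the low dose, 117, 106 and 116 at the medium dose and 106, 109 and 102 at the high dose, which overlapped between neighbouring doses. Medium against low was -0.01 (95% interval -0.15 to 0.13) there. The lowest AHR library of all, at 95.1 CPM, was Zingiberis Rhizoma Recens low replicate 1, and those of vehicle replicate 1 (105), Zingiberis Rhizoma high replicate 2 (101) and Zizyphi Fructus high replicate 3 (102) were each the lowest of their groups; these are the 4 libraries that stand apart. In Zingiberis Rhizoma Recens, AHR at high against low was 0.20 and not called, and without low replicate 2 it was 0.32 (adjusted p = 0.0069).

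ARNT, the partner that the receptor shares with the hypoxia factors, lay between 25.5 and 38.2 CPM. It was called between doses once, at 34.5, 34 and 37.1 CPM in Coptidis Rhizoma high against 30.9, 30.3 and 30.7 at the medium dose (0.20 ± 0.07, adjusted p = 0.0164). That call was lost without medium replicate 2 (adjusted p = 0.0594) or high replicate 3 (adjusted p = 0.108). In Scutellariae Radix, ARNT held 33.0, 30.9 and 27.9 CPM at the low dose, 27.8, 27.7 and 27.8 at the medium dose and 26.6, 26.4 and 29 at the high dose. The high-against-low change of -0.16 (95% interval -0.30 to -0.01) was not called (adjusted p = 0.145). For Zizyphi Fructus, ARNT was not called between doses, but without high replicate 1 it was lower at high against low (-0.23, adjusted p = 0.0315). At high against medium it was lower with no filter on low counts (-0.24, adjusted p = 0.0417), by DESeq2 (-0.24, adjusted p = 0.0324), without high replicate 1 (-0.30, adjusted p = 0.00785) and without high replicate 2 (-0.29, adjusted p = 0.0291).

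Against vehicle the same 3 vehicle libraries serve all comparisons. All titles carry the label BatchA, but the sample codes begin differently for vehicle, wortmannin and the extracts. Libraries whose codes begin alike are called a set, and what the codes stand for is not stated. If a set marks a batch, set and treatment cannot be told apart here. Coptidis Rhizoma had 3 of the 7 genes higher at its low dose (0.397% of all genes called), 4 at its medium (6.32%) and all 7 at its high dose (53.8%). Scutellariae Radix had 4 of 7 higher at its low (0.126%), medium (6.64%) and high dose (20.3%). At its low dose 21 genes in all were called, and CYP1A1, CYP1B1, TIPARP and ALDH1A3 were among them; the TIPARP call was lost in a fit of only the libraries compared (0.60, adjusted p = 0.14). Zingiberis Rhizoma had 0 of 7 called at the low (0%) and medium dose (0.012%) and 4 higher at the high dose (0.789%). Zingiberis Rhizoma Recens had 0 of 7 called at the low (0%) and medium dose (0%) and 2 higher at the high dose (2.08%). Pinelliae Tuber had 0 at the low (0.012%), medium (0.0482%) and high dose (0.187%), and Zizyphi Fructus 0 at the low (0.012%), medium (0%) and high dose (0.0181%).

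CYP1A1 was 344-fold higher in Coptidis Rhizoma high than in vehicle (log2 change 8.43 ± 0.15, adjusted p = 1.68e-41) and 279-fold higher in Scutellariae Radix medium (8.12 ± 0.15, adjusted p = 2.29e-40), number 2 among all genes by rise in both. The vehicle libraries held 0.460, 0.533 and 0.695 CPM, below every library of these groups. Scutellariae Radix low was 2.29 ± 0.25 above vehicle (4.89-fold, adjusted p = 1.16e-08) and Zingiberis Rhizoma high 1.88 ± 0.26 (3.67-fold, adjusted p = 4.31e-06). Coptidis Rhizoma low, at 1.02 (95% interval 0.46 to 1.59), had an adjusted p of 0.114, but was called with no filter on low counts (adjusted p = 0.0093) and by DESeq2 (adjusted p = 0.034).

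CYP1B1 was higher than in vehicle by 3.28 ± 0.09 in Coptidis Rhizoma high (adjusted p = 1.1e-34), 3.23 ± 0.09 in Scutellariae Radix medium (adjusted p = 1.48e-33), 1.18 ± 0.08 in Scutellariae Radix low (adjusted p = 1.23e-14) and 0.75 ± 0.08 in Coptidis Rhizoma low (adjusted p = 9.45e-09). The vehicle libraries held 47.2, 47.1 and 49.7 CPM. With both ginger extracts at the high dose it was higher too, by 0.57 ± 0.08 for Zingiberis Rhizoma (adjusted p = 1.22e-05) and 0.44 ± 0.08 for Zingiberis Rhizoma Recens (adjusted p = 0.00107). For Pinelliae Tuber high the change of 0.35 (0.19 to 0.52) had an adjusted p of 0.0516. It was called with no filter on low counts (adjusted p = 3.69e-05), by DESeq2 (adjusted p = 0.0149) and with the replicate block (adjusted p = 0.0418). For Zingiberis Rhizoma medium CYP1B1 was called with no filter (0.34, adjusted p = 0.000297) and by DESeq2 (0.34, adjusted p = 0.0473).

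TIPARP was higher than in vehicle by 1.82 ± 0.09 in Coptidis Rhizoma high (adjusted p = 1.3e-23) and 1.68 ± 0.09 in Scutellariae Radix medium (adjusted p = 7.93e-21), and vehicle libraries held 61.9, 67.6 and 72.3 CPM. ALDH1A3 was higher by 1.99 ± 0.07 in Coptidis Rhizoma high (adjusted p = 6.35e-29) and 2.51 ± 0.07 in Scutellariae Radix medium (adjusted p = 2.81e-32). In Zingiberis Rhizoma high, TIPARP was called at 0.34 ± 0.09 (adjusted p = 0.0447), but not without the 4 libraries that stand apart (0.30, adjusted p = 0.119), without any 1 library of either group, in a fit of only the libraries compared or with DESeq2 size factors. ALDH1A3 in the same comparison, 0.35 ± 0.08 (adjusted p = 0.00882), was lost without vehicle replicate 1 or 2 or high replicate 1 and in a fit of only the libraries compared. TIPARP in Zingiberis Rhizoma Recens high, 0.42 ± 0.09 (adjusted p = 0.00245), was lost without vehicle replicate 1 (adjusted p = 0.0582). TIPARP in Coptidis Rhizoma low, 0.37 ± 0.09 (adjusted p = 0.0244), was lost without vehicle replicate 1 or 2 or any of its own 3 libraries (adjusted p 0.062 to 0.308), and both it and ALDH1A3 there were lost in a fit of only the libraries compared (adjusted p 0.0557 and 0.0734). AHRR in Coptidis Rhizoma high, 0.39 ± 0.12 (adjusted p = 0.00432), was 0.22 without high replicate 2 (adjusted p = 0.132) and was lost in a fit of only the libraries compared (adjusted p = 0.0526).

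In wortmannin, 2 of the 7 genes were higher than in vehicle, which has another sample code, with 20.6% of all genes called. AHRR held 6.38, 6.02 and 7.49 CPM in wortmannin against 4.66, 4.90 and 3.99 in vehicle, with no overlap (0.54 ± 0.12, adjusted p = 0.00062). ALDH1A3 held 27, 25.7 and 27.5 CPM in wortmannin against 20.4, 19.4 and 21.5 in vehicle (0.39 ± 0.08, adjusted p = 0.00014). Its antisense gene AC015712.2 was also higher, at 16.8 ± 0.893 CPM (SD) in wortmannin against 11.7 ± 2.08 in vehicle. Within their shared exon bases, reads of these 2 genes cannot be told apart without strand. CYP1A1, at 0.847, 0.498 and 1.05 CPM in wortmannin, overlapped vehicle (0.45, 95% interval -0.21 to 1.11, adjusted p = 0.365). CYP1B1 held 55.5, 55.5 and 53.4 CPM against 47.2, 47.1 and 49.7 in vehicle, with no overlap (0.19, adjusted p = 0.103). In a fit of only the libraries compared it was called (0.20, adjusted p = 0.0245).

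Extracts that share a dose and, by their sample codes, a set were compared directly. At the low dose, Scutellariae Radix had 4 of the 7 genes higher than Pinelliae Tuber, where 8 genes in all, or 0.0482%, were called. CYP1A1 was higher by 2.43 ± 0.26 (5.38-fold, adjusted p = 1.03e-08), CYP1B1 by 1.12 ± 0.08 (adjusted p = 1.43e-13), ALDH1A3 by 0.76 ± 0.08 (adjusted p = 1.53e-09) and TIPARP by 0.52 ± 0.09 (adjusted p = 0.000971). The TIPARP call was lost without Scutellariae Radix low replicate 1 (0.40, adjusted p = 0.174), and both TIPARP and CYP1B1 were lost in a fit of only the libraries compared (adjusted p 0.771 and 1). At the medium dose 4 were higher and ARNT lower (6.12% called), with CYP1A1 307-fold higher (8.26 ± 0.15, adjusted p = 2.14e-41), number 1 among all genes by size. The ARNT difference, -0.24 ± 0.07 (adjusted p = 0.0274), was lost with no filter and without any of 5 single libraries. At the high dose 4 of 7 were higher (16.9% called), with CYP1A1 at 5.92 ± 0.14 (60.5-fold, adjusted p = 2.01e-35). In a fit of only the libraries compared, AHR (-0.13, adjusted p = 0.0216) and ARNT (-0.16, adjusted p = 0.0378) were lower there as well.

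Zingiberis Rhizoma against Zingiberis Rhizoma Recens gave 0 of 7 called at the low, medium and high dose (0%, 0% and 0% of all genes). CYP1A1 at the high dose held 2.03, 1.81 and 2.32 CPM in Zingiberis Rhizoma against 1.00, 1.17 and 1.02 in Zingiberis Rhizoma Recens. These libraries did not overlap, and the difference of 0.99 (95% interval 0.50 to 1.47) had an adjusted p of 0.346, against 0.00266 with no filter on low counts. The other 6 genes differed by -0.15 to 0.13 at that dose. The high-against-low change did not differ between the gingers for any of the 7 at this threshold (0% of all genes called), with CYP1A1 at 1.25 (95% interval 0.27 to 2.23). Without Zingiberis Rhizoma Recens low replicate 2 that difference was called for TIPARP (-0.49, adjusted p = 0.0165) and AHR (-0.41, adjusted p = 0.0168), and at the low dose TIPARP was then higher in Zingiberis Rhizoma (0.39, adjusted p = 0.0228).

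The high-against-low change of Scutellariae Radix exceeded that of Pinelliae Tuber for 3 of the 7 genes (6.32% of all genes called), CYP1A1, CYP1B1 and TIPARP, and without Scutellariae Radix low replicate 1 also for ALDH1A3 (0.38, adjusted p = 0.0117). It was smaller than that of Coptidis Rhizoma for 6 of the 7 (38.8% called), all but AHRR. The doses of these 2 extracts differ, and so do their sets. The high-against-medium changes ran in opposite directions for CYP1A1, at -1.48 in Scutellariae Radix and 4.11 in Coptidis Rhizoma, and their difference was called for 6 of the 7 genes (33.8% of all genes called), all but ARNT. ARNT was called too without the 4 libraries that stand apart (-0.21, adjusted p = 0.0468) and in a fit of only the libraries compared (-0.21, adjusted p = 0.0358). That last comparison was added after the values were seen.

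Across the 20 group means of log2 CPM, CYP1A1 had a Pearson r of 0.99 with CYP1B1, 0.98 with TIPARP and 0.97 with ALDH1A3. Its r was 0.32 with AHRR, 0.16 with AHR and -0.30 with ARNT. The points share cells, a protocol and, within an extract, its set, so these values describe the groups and carry no p. Among all tested genes outside the set, the 5 most like CYP1A1 were CYP1B1-AS1 (0.968), SLC22A3 (0.967), ADGRF1 (0.958), MYZAP (0.945) and VIPR1 (0.943). CYP1B1-AS1, SLC22A3 and ADGRF1 were also the 3 most like CYP1B1 and the 3 most like TIPARP. Those most like ALDH1A3 were CYP1B1-AS1, MYZAP and VIPR1 (0.938 to 0.942). CYP1B1-AS1 shares 678 exon bases with CYP1B1, so its counts may hold CYP1B1 reads if strand was not used. The genes most like AHR were MAP4K3, ZNF189 and COG6 (0.887 to 0.895), those most like ARNT were CBLB, COBLL1 and DIP2C-AS1 (0.849 to 0.869), and those most like AHRR were ABCC5, SOS1-IT1 and CYP3A5 (0.766 to 0.801).

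Of 12 further targets of the receptor, 10 passed the filter on low counts. At high against low, 7 were higher and 3 lower with Coptidis Rhizoma (52.4% of all genes called, median log2 change 0.71 against 0.001 over all genes), and 6 higher and 1 lower with Scutellariae Radix (16.3% called, median 0.37 against -0.011). With Zingiberis Rhizoma Recens 5 were higher (1.79% called), with Zingiberis Rhizoma 3 (0.915%), with Zizyphi Fructus 2 (0.0482%) and with Pinelliae Tuber 0 (0.0421%). Without the 4 libraries that stand apart these became 5, 4, 1 and 1. The 1 lower gene with Scutellariae Radix was ABCG2, a drug efflux pump, at -0.21 (95% interval -0.32 to -0.11), and the 3 with Coptidis Rhizoma were ABCG2, CYP2S1 and NEDD9 at -0.58, -0.35 and -0.20. These 3 are named after their values were seen. Among those higher, UGT1A6 shares exons with other UGT1A genes, so its counts are uncertain.

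ALDH3A1, an aldehyde dehydrogenase, held 77.5 ± 0.532 CPM at the high and 23.5 ± 1.0 CPM at the low dose of Scutellariae Radix (1.72 ± 0.09, adjusted p = 1.73e-20). Its medium-against-low change was 1.36 ± 0.09 there (adjusted p = 4.56e-16), so unlike CYP1A1 its mean was highest at the high dose. In Zingiberis Rhizoma and Zingiberis Rhizoma Recens it rose by 1.09 ± 0.10 (adjusted p = 2.17e-11) and 1.03 ± 0.10 (adjusted p = 1.13e-10). With Coptidis Rhizoma it rose by 0.88 ± 0.09 (adjusted p = 9.99e-12). At high against medium of Scutellariae Radix 2 of the 10 were higher, ALDH3A1 and SLC7A5, and 2 lower, against 5.09% of all genes called. The lower ones were PTGS2 (-0.42, adjusted p = 0.0002) and ABCG2 (-0.29, adjusted p = 0.0001). Like CYP1A1, PTGS2 had risen at medium against low (0.55), while ABCG2 was not called there. PTGS2 and ABCG2 are named here after their values were seen.

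NQO1, a quinone reductase, was higher at high against low dose in 5 of the 6 extracts. It held 1320 ± 17 CPM in Coptidis Rhizoma high against 586 ± 20.9 in the low dose (1.17 ± 0.06, adjusted p = 1.24e-22), and 790 ± 20.6 against 514 ± 11.5 in Scutellariae Radix (0.62 ± 0.06, adjusted p = 9.59e-12). For Zizyphi Fructus NQO1 stood at 0.34 ± 0.06 (adjusted p = 0.00227), and leaving out the 4 libraries apart brought it to 0.19 (adjusted p = 0.0691). EREG, a growth factor of the EGF family, rose by 1.91 ± 0.06 with Coptidis Rhizoma (adjusted p = 5.32e-31) and 0.92 ± 0.06 with Scutellariae Radix (adjusted p = 3.39e-17). SLC7A5, an amino acid transporter, rose by 1.54 ± 0.06 (adjusted p = 4.19e-29) and 0.65 ± 0.05 (adjusted p = 1.1e-13) in these same 2 comparisons.

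**Figure D4:**
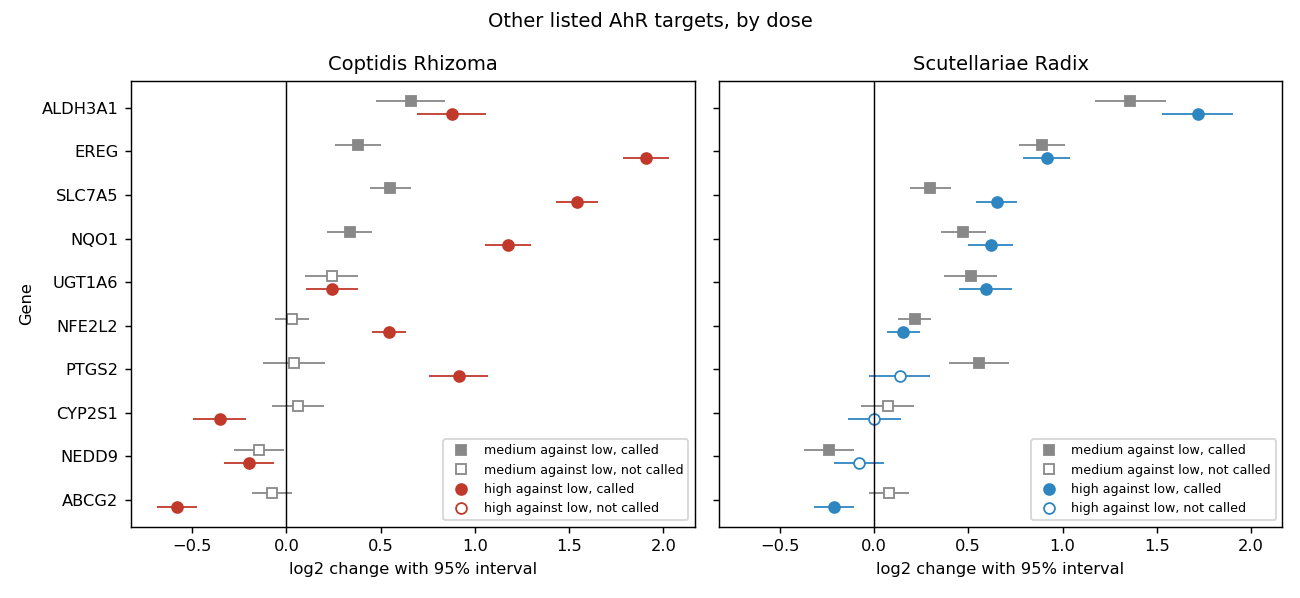
Log2 change with its 95% interval for the 10 further targets that were tested (rows), at medium against low (grey squares) and high against low (coloured circles), for Coptidis Rhizoma on the left and Scutellariae Radix on the right; open symbols were not called. EREG, SLC7A5 and NQO1 lie farther to the right at the high than at the medium dose of Coptidis Rhizoma, and for these 3 the doses lie closer to each other with Scutellariae Radix.

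Of the receptor's chaperones and cofactors, 8 of 9 passed the filter. At high against low 3 were higher and 3 lower with Coptidis Rhizoma (52.4% of all genes called), 1 lower with Scutellariae Radix (16.3%) and 0 called with the other extracts (0.0421% to 1.79%). The median log2 changes ran from -0.03 to 0.05, beside -0.012 to 0.014 over all genes. Without the 4 libraries that stand apart, 2 were higher and 2 lower with Scutellariae Radix. HSP90AB1, which holds the receptor in the cytoplasm, fell to 1450 ± 13.8 CPM in Coptidis Rhizoma high, against 1780 ± 12 in its low dose (-0.30 ± 0.05, adjusted p = 1.44e-06). CUL4B, a ubiquitin ligase scaffold, was higher there, at 0.19 ± 0.05 (adjusted p = 0.00164). NCOA1, a coactivator, was the 1 gene lower with Scutellariae Radix (-0.26 ± 0.08, adjusted p = 0.0106).

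Among 8 listed genes, partners of ARNT and hypoxia targets, 7 were higher and 1 lower with Coptidis Rhizoma at high against low (52.4% of all genes called). In Scutellariae Radix 3 were higher (16.3% called), or 3 higher and 1 lower without the 4 libraries that stand apart. The median log2 changes were 0.70 and 0.25, beside 0.001 and -0.011 over all genes, and with the other extracts 0 were called (0.0421% to 1.79% of all genes). VEGFA, the angiogenic growth factor, held 360 ± 12.3 CPM in Coptidis Rhizoma high against 80.2 ± 3.94 in its low dose (2.17 ± 0.05, adjusted p = 3.57e-37). In Scutellariae Radix VEGFA rose at high against low (0.61 ± 0.05, adjusted p = 7.09e-14) and stood at 0.02 ± 0.05 at medium against low (adjusted p = 0.937), where CYP1A1 had its largest rise. EPAS1, a hypoxia factor that pairs with ARNT, rose by 0.87 ± 0.07 with Coptidis Rhizoma (adjusted p = 1.51e-14) and 0.29 ± 0.08 with Scutellariae Radix (adjusted p = 0.00431). SIM2, another partner, rose by 0.79 ± 0.10 with Coptidis Rhizoma (adjusted p = 8.84e-10). CA9, carbonic anhydrase 9, was the 1 lower gene with Coptidis Rhizoma (-1.29 ± 0.12, adjusted p = 1.18e-12); hypoxia is known to induce it.

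Of 10 genes of retinoid metabolism and response, to which ALDH1A3 belongs by function, 6 passed the filter. At high against low 5 were higher with Coptidis Rhizoma (52.4% of all genes called), and 2 higher and 2 lower with Scutellariae Radix (16.3% called), or 3 and 2 without the 4 libraries that stand apart. The medians were 0.36 and 0.09, beside 0.001 and -0.011 over all genes. With Zingiberis Rhizoma Recens 1 was higher (1.79% of all genes called) and with Zingiberis Rhizoma 1 (0.915%). With Pinelliae Tuber (0.0421%) and Zizyphi Fructus (0.0482%) 0 were called. DHRS9, a retinol dehydrogenase, held 2.39 ± 0.183 CPM in Scutellariae Radix high against 0.621 ± 0.216 in its low dose (1.91 ± 0.26, adjusted p = 1.7e-07). It also rose with Zingiberis Rhizoma Recens (1.12 ± 0.30, adjusted p = 0.0383), where the adjusted p was 0.0578 without the 4 libraries that stand apart. DHRS3, a retinaldehyde reductase, fell in Scutellariae Radix (-0.60 ± 0.09, adjusted p = 1.83e-06) and rose in Coptidis Rhizoma (0.81 ± 0.09, adjusted p = 2.11e-11). RDH10, which makes retinaldehyde, rose with both, by 0.50 ± 0.06 (adjusted p = 1.8e-10) with Coptidis Rhizoma and 0.34 ± 0.06 (adjusted p = 1.47e-05) with Scutellariae Radix. STRA6, the retinol uptake receptor, fell in Scutellariae Radix (-0.63 ± 0.11, adjusted p = 3.09e-05).

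Of the 8 colon epithelium markers at high against low, 2 were higher and 3 lower with Coptidis Rhizoma, a count close to the 52.4% of all genes called there. With Scutellariae Radix 1 was higher and 2 lower (16.3% called), or 1 higher and 4 lower without the 4 libraries that stand apart. Zingiberis Rhizoma Recens had 1 higher (1.79% of all genes called), and 1 higher and 1 lower without those 4. Zingiberis Rhizoma had 1 higher and 1 lower (0.915% called), and 0 higher and 1 lower without them. KRT20, a keratin of mature colon cells, rose by 0.56 ± 0.04 with Scutellariae Radix (adjusted p = 2.47e-14) and 0.30 ± 0.04 with Coptidis Rhizoma (adjusted p = 1.31e-07), and VIL1, the brush border protein villin, fell by 0.35 (-0.35 ± 0.04, adjusted p = 2.03e-09) and 0.48 (-0.48 ± 0.04, adjusted p = 8.21e-15). CDX1, an intestinal transcription factor, and KRT18, an epithelial keratin, fell with Coptidis Rhizoma (-1.13 ± 0.26, adjusted p = 0.000323, and -0.25 ± 0.07, adjusted p = 0.00272). The CDX1 change rests on a low level, 0.448 to 2.14 CPM over all libraries. Of the markers of other cell types, PECAM1 of endothelium fell with Coptidis Rhizoma (-1.30 ± 0.22, adjusted p = 2.57e-06) and COL1A1 of fibroblasts was not called (0.36 ± 0.18, adjusted p = 0.0934). Their part in the changes of the 7 genes was not tested.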

How the data were processed

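RNA-seq of HT29 cells was deposited by the authors in the form of RSEM expected counts per gene, made with RSEM 1.3.3 after FastQC 0.11.9, Trim Galore 0.6.5 and STAR 2.7.3a on GRCh38, per the submitters' processing notes. The annotation release and whether counting used strand are not given in the sources used here; gene symbols, positions and exon lengths were taken from GENCODE 29. The table's 210 other columns were not used. Of the deposited values 8.75% were not whole and were rounded. Counts split between overlapping or near-identical genes are uncertain.

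From the 60 libraries, edgeR 4.0.16 (R 4.3.3) with TMM scaling, filterByExpr (16608 genes kept) and robust quasi-likelihood fitted 1 coefficient per group (40 residual degrees of freedom), with Benjamini-Hochberg adjustment over all genes of a comparison. The standard error is the absolute log2 change divided by the root of F, with a 95% interval from it. Levels are TMM-scaled CPM, computed here. No pair of libraries agreed within sampling noise. The script was tested on simulated data.

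The genes and lists were chosen with earlier results of these data known. Named are all 7 genes, of each list up to 4 with the smallest p in any high-against-low comparison, and the 5 (CYP1A1) or 3 most alike by Pearson r; a gene that the rule names among the cofactors is not reported here. Alternatives were DESeq2 1.42.0, its size factors, no filter, a replicate block, a linear dose trend, fits of only the libraries compared, and leaving out single libraries or the 4 that stand apart. The difference of Scutellariae Radix from Coptidis Rhizoma in high against medium was added after the data were seen. Same-numbered libraries did not pair: all 3 correlations passed 0.1 in 1 of 43 comparisons.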

Additional observations from a re-analysis of the deposited data

Results flagged for a closer look

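The high-against-low change differed between extracts in 9 of 21 tests, by an interaction term in edgeR's quasi-likelihood test. Of these, 6 were in Scutellariae Radix minus Coptidis Rhizoma, where 38.8% of all genes were called. The other 3 were in Scutellariae Radix minus Pinelliae Tuber (6.32%), and 0 were in Zingiberis Rhizoma minus Zingiberis Rhizoma Recens (0%). Scutellariae Radix minus Pinelliae Tuber, at the same doses, gave 3.49 on the log2 scale for CYP1A1 (adjusted p = 8.9e-09), 1.09 for CYP1B1 (adjusted p = 6e-10) and 0.76 for TIPARP (adjusted p = 8.89e-06). Scutellariae Radix minus Coptidis Rhizoma, at doses that differ, gave -3.05 for CYP1A1 (adjusted p = 1.34e-16), -1.15 for CYP1B1 (adjusted p = 3.37e-12), -1.15 for ALDH1A3 (adjusted p = 6.1e-14) and -0.49 for TIPARP (adjusted p = 0.000748). For AHR it was -0.34 (adjusted p = 0.00495), and for ARNT -0.28 (adjusted p = 0.0205). The ARNT difference was lost with no filter on low counts (adjusted p = 0.0514) and without any of 7 single libraries (adjusted p 0.0506 to 0.111).

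The high-against-medium change also differed between Scutellariae Radix and Coptidis Rhizoma for 6 of the 7 genes (33.8% of all genes called), in a test added after the data were seen. The difference was -5.59 for CYP1A1 (adjusted p = 2.82e-35), -2.27 for CYP1B1 (adjusted p = 1.59e-22), -2.16 for ALDH1A3 (adjusted p = 3.1e-24) and -1.20 for TIPARP (adjusted p = 9.67e-12). AHRR gave -0.55 (adjusted p = 0.00712), but -0.38 without Coptidis Rhizoma high replicate 2 (adjusted p = 0.0722), and AHR gave -0.34 (adjusted p = 0.00567). For CYP1A1, every high-dose library of Scutellariae Radix was below every medium-dose one, and with Coptidis Rhizoma every one was above.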

How the results depend on the processing

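Of 329 tests of the 7 genes, 97 passed the threshold, and 74 of these did so under every alternative. The tests pool comparisons in which 0% to 53.8% of all genes were called. No value of a called gene changed sign in the 4146 alternative values; 69 lost a call and 31 gained one. The number of the 7 genes called at high against low over the 6 extracts was 16, and 9 with a linear trend on log10 dose, under which CYP1A1 in Zingiberis Rhizoma was 2.29 (adjusted p = 0.62). In the main fit that change was 2.27. The trend fit took all extracts together, and the medium-dose peak of Scutellariae Radix entered its spread. Calls lost under it therefore do not show that the ginger changes were smaller. The number called at high against low was 13 in fits of only the libraries compared and 17 with no filter on low counts. Leaving out single libraries gave 14 to 18 at high against low, 10 to 12 at high against medium, 7 to 8 at medium against low, 30 to 34 against vehicle, 12 to 14 between extracts of 1 set, and 8 to 11 for the differences between extracts. The CYP1A1 change at high against low then lay between 7.34 and 7.51 for Coptidis Rhizoma, 4.19 and 4.61 for Scutellariae Radix, 2.14 and 2.49 for Zingiberis Rhizoma, 0.86 and 1.17 for Zingiberis Rhizoma Recens, 0.77 and 0.93 for Pinelliae Tuber, and 0.12 and 0.89 for Zizyphi Fructus. The replicate block changed 1 call, CYP1B1 in Pinelliae Tuber high against vehicle (0.35, adjusted p = 0.0418), and gave 35 calls against vehicle where the fit without it gave 34; correlations between same-numbered libraries ran from -0.37 to 0.34. Size factors of DESeq2 moved the median change of all genes by at most 0.016. CYP1A1 counts of 2 to 27 per library limit what could be called in the vehicle, wortmannin, Zingiberis Rhizoma Recens, Pinelliae Tuber and Zizyphi Fructus groups. Zingiberis Rhizoma low, the reference of the 4.82-fold change, held 6, 8 and 12.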
